A study of Mus musculus with 29 samples.

Results

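The sterol synthesis and SREBP target genes are 32 mouse genes given by name, in a list drawn up with earlier results of these data known but with no measured value in its rule, out of 55357 genes counted. By role they are 7 enzymes of the mevalonate arm (Acat2, Hmgcs1, Mvk, Pmvk, Mvd, Idi1 and Fdps), 11 enzymes from squalene to sterol (Fdft1, Sqle, Lss, Cyp51, Tm7sf2, Msmo1, Nsdhl, Hsd17b7, Ebp, Sc5d and Dhcr7) and 5 genes of the SREBP machinery (Srebf1, Srebf2, Scap, Insig1 and Insig2). The others are the sterol carrier gene Stard4 and 8 genes of fatty acid synthesis and desaturation (Fasn, Scd1, Scd2, Acaca, Acly, Acsl3, Fads1 and Fads2). All 32 were found in the table by symbol, each once. The table gives each gene's span, on mm39 by the submitters' processing notes, and lists Hmgcs1 (ENSMUSG00000093930) at chr13:120151915-120169797, Sqle (ENSMUSG00000022351) at chr15:59186926-59203042, Insig1 (ENSMUSG00000045294) at chr5:28276361-28283661, Srebf2 (ENSMUSG00000022463) at chr15:82031382-82089581 and Scd1 (ENSMUSG00000037071) at chr19:44382894-44396319.

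RNA was sequenced from primary cardiac fibroblasts, the matrix-making cells of the heart, of young mice (YCF) or aged mice (ACF), in 29 libraries of 10 groups. Fresh YCF and fresh ACF are freshly isolated cells, with 3 libraries each. The other 8 groups were YCF or ACF kept for 48 h on 1 of 4 DECIPHER substrates, hybrids of heart extracellular matrix (ECM) and hydrogel: SoftY, StiffY, SoftA and StiffA. These names are read here as a soft or stiff gel with ECM of young (Y) or aged (A) heart, which the labels do not spell out. These groups had 3 libraries each, except YCF on SoftY with 2. The labels give no strain, sex, age in months or gel stiffness, and no group without ECM was analysed here.

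Cells make cholesterol from acetyl-CoA through mevalonate, farnesyl diphosphate, squalene and lanosterol. The pathway is set by SREBP proteins, membrane-bound transcription factors that Scap escorts out of the endoplasmic reticulum when membrane sterol is low and that Insig proteins hold back when it is high. SREBP-2, encoded by Srebf2, acts mainly on sterol genes and SREBP-1, encoded by Srebf1, also on fatty acid genes, and Insig1 is itself a target, which closes a feedback loop.

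Library totals lay between 1192668 and 3275089 counts and limit the precision of low genes. Levels are in CPM, counts scaled to a total of 1000000 after TMM scaling of the library sizes. 4 libraries held under 1500000 counts: YCF on StiffY replicate 3, YCF on SoftA replicates 1 and 3, and ACF on SoftA replicate 1. The 10 fibroblast marker genes, among them Col1a1, Dcn and Pdgfra, had counts in all 4 classes of fresh or cultured, young or aged cells, and the 4 globin genes had none. Summed over 10 macrophage markers, levels were 203 to 206 CPM in fresh YCF, 368 to 416 CPM in fresh ACF and 23.5 to 67.0 CPM in cultured libraries. The labels number the libraries of a group as biological repeats without naming their animals, and p-values reflect only how far these libraries spread. Library names carry a letter that follows the substrate and a number that follows the cell age, so any preparation step that followed them cannot be told apart from substrate, culture or age. Changes are given on the log2 scale with their SE, and the adjusted p beside each comes from edgeR's quasi-likelihood test run on all genes. A gene is called at an adjusted p under 0.05, and "rose" and "fell" are used only of called genes.

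Culture was the comparison in which most of these genes moved. After 48 h on the substrates 27 of 32 were higher and 4 lower among the called genes of young cells, with 1 not called. In aged cells 27 were higher, 3 lower and 2 not called. Of all 13523 genes tested, 27.1% were called higher and 29.9% lower in young cells (56.9% in all), and 29.9% higher and 32.5% lower in aged cells (62.4% in all). The median log2 change of the 32 was 1.16 in young and 1.11 in aged cells, against -0.03 and -0.01 over all genes. In young cells 19 of the 32 lay higher in every cultured library than in every fresh one (16.8% of all genes did) and 4 lower (19.3%). In aged cells 26 lay higher (20.4% of all genes) and 1 lower (23.2%). In bulk RNA, fewer cells of a type and less RNA per cell cannot be told apart, and markers of several cell types moved with these changes. Of 8 macrophage markers tested, culture lowered 7 at the young age and 8 at the aged one, and of 5 endothelial markers it lowered 5 and 4. The endothelial sum over 6 markers was 85.0 to 93.0 CPM in fresh YCF, 122 to 129 in fresh ACF, 12.9 to 46.4 in cultured YCF and 30.2 to 113 in cultured ACF. Of 10 fibroblast markers 7 were called higher and 2 lower with YCF culture, and 6 higher and 3 lower with ACF culture. The part of these cells in the sterol gene values was not tested.

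Hmgcs1, the synthase that makes HMG-CoA at the entry of the mevalonate arm, had 31.996, 28.0 and 37.6 CPM in the 3 fresh YCF libraries and 37.3, 28.7 and 31.9 CPM in fresh ACF. In YCF it had 102 and 119.9 CPM on SoftY, 159.9, 135 and 122 on StiffY, 176, 165 and 182 on SoftA and 160.2, 163 and 174 on StiffA. In ACF it had 141, 127 and 118 CPM on SoftY, 123, 136 and 124 on StiffY, 169.7, 177 and 176 on SoftA and 165, 161 and 167 on StiffA. Every cultured library thus stood above every fresh one, and within ACF every library on aged ECM stood above every library on young ECM. The culture change was 2.17 ± 0.10 (adjusted p = 1.82e-17) in young and 2.17 ± 0.10 (adjusted p = 1.26e-17) in aged cells.

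All 7 mevalonate genes rose at both ages. Fdps, the farnesyl diphosphate synthase, rose by 2.32 ± 0.33 in young cells (adjusted p = 3.85e-07) and by 3.47 ± 0.35 in aged cells (adjusted p = 5.34e-10), from low levels of 1.38, 2.60 and 3.29 CPM in fresh YCF and 0.83, 1.67 and 2.36 CPM in fresh ACF. These rested on few counts per fresh library, and Fdps did not pass the filter on low counts in the fit of fresh cells alone. Idi1, which isomerises isopentenyl diphosphate, rose by 1.10 ± 0.22 (adjusted p = 6.73e-05) in young and 1.20 ± 0.21 (adjusted p = 1.58e-05) in aged cells. Its fresh levels were 6.88, 8.09 and 18.3 CPM in YCF, where 1 library lay apart, and 12.0, 12.1 and 10.2 CPM in ACF. In YCF it had 16.8 and 13.5 CPM on SoftY, 29.9, 22.0 and 29.9 on StiffY, 36.3, 20.9 and 30.8 on SoftA and 22.0, 23.5 and 23.3 on StiffA, so that the SoftY libraries lay within the fresh range and the others above it. A processed copy, Idi1-ps1, held 986 counts over all libraries against 1446 for Idi1, so reads may be shared between them and the value of Idi1 is uncertain.

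**Figure D1:**
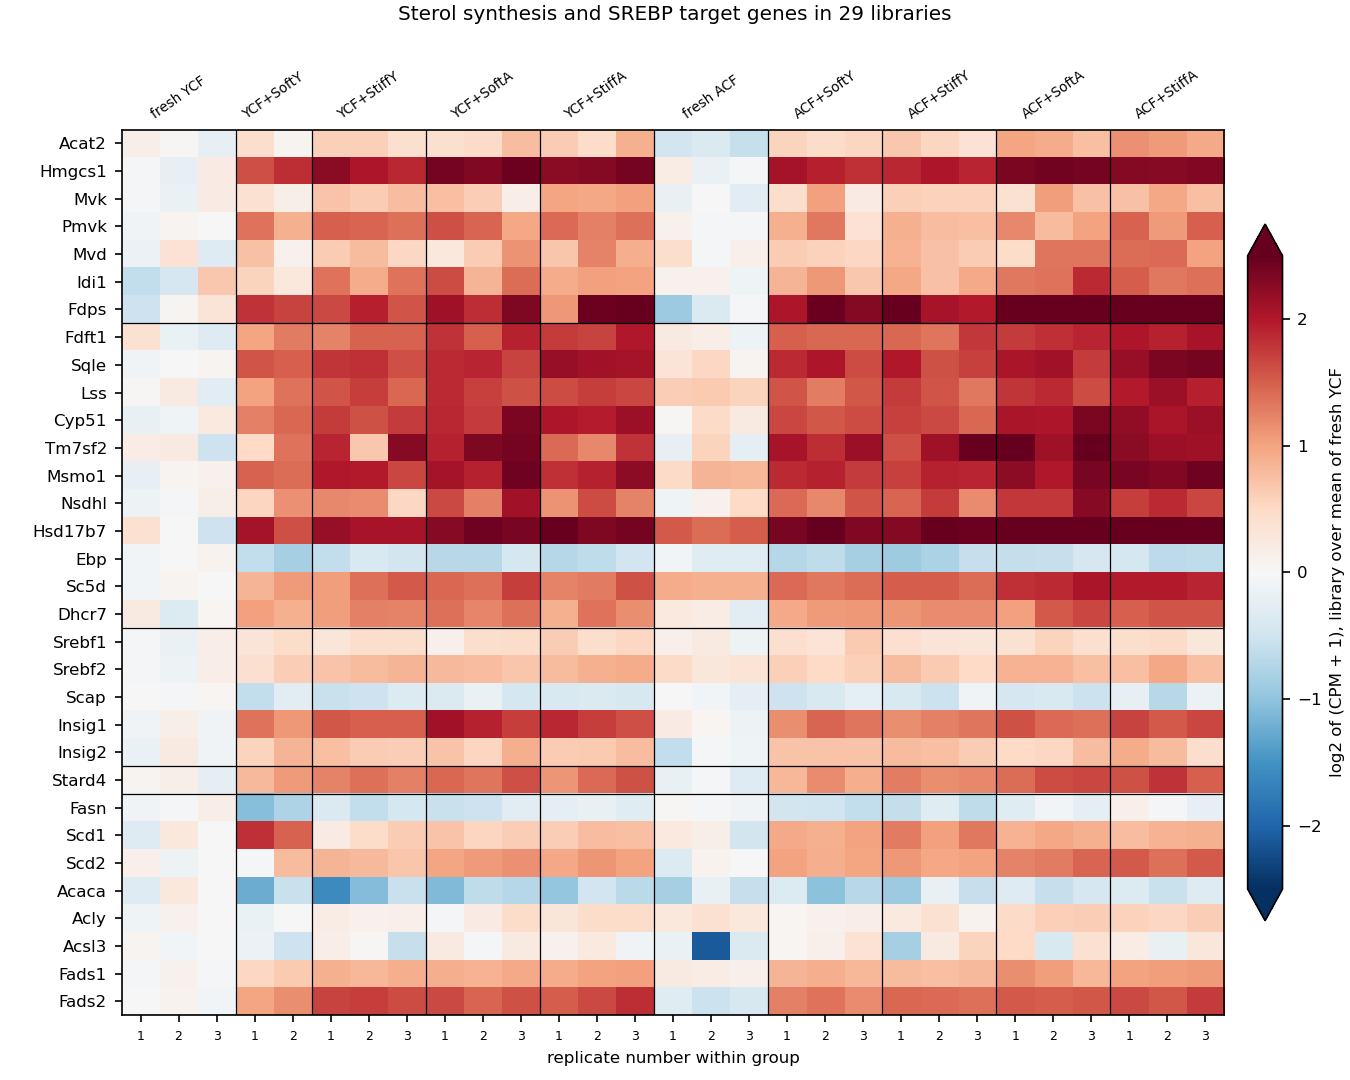
Each row is a gene, ordered by role with lines between roles (mevalonate arm, squalene to sterol arm, SREBP machinery, sterol transport, fatty acid arm), and each column a library. Colour is log2 of (CPM + 1) over the mean of fresh YCF and stops at 2.5 in either direction, beyond which Fdps, Tm7sf2 and Hsd17b7 reach in some libraries. Cultured columns are red in most rows and blue for Ebp, Scap, Fasn and Acaca in young cells.

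Of the 11 genes from squalene to sterol, 10 rose and Ebp fell at both ages. Sqle, the squalene epoxidase that introduces oxygen into the pathway, had 71.9, 76.8 and 79.4 CPM in fresh YCF and 95.8, 109 and 79.5 CPM in fresh ACF. In YCF it had 228 and 216 CPM on SoftY, 264, 273 and 235 on StiffY, 279, 288 and 249 on SoftA and 349.9, 331 and 325 on StiffA. Every cultured library of both ages lay above every fresh library of its age, and Sqle rose by 1.82 ± 0.11 (adjusted p = 2.45e-15) in young and 1.67 ± 0.10 (adjusted p = 7.91e-15) in aged cells. Among genes of this arm with a mean of at least 10 CPM, the largest rises in young cells were Hsd17b7, the sterol ketone reductase, at 2.21 ± 0.13 (adjusted p = 2.54e-15) and Msmo1, a methylsterol oxidase, at 1.90 ± 0.12 (adjusted p = 3.70e-14). In aged cells, under the same limit, they were Sqle and Cyp51, the lanosterol demethylase (1.64 ± 0.13, adjusted p = 1.18e-12). Ebp, the sterol isomerase, fell by 0.61 ± 0.10 (adjusted p = 4.16e-06) in young cells and fell by 0.43 ± 0.10 (adjusted p = 0.000571) in aged cells, and every cultured library lay below every fresh one at both ages. Tm7sf2, a sterol reductase below that limit, rose by 2.12 ± 0.44 (adjusted p = 0.000118) in young and 2.80 ± 0.42 (adjusted p = 1.11e-06) in aged cells. It had 387 counts over all 29 libraries, 10 of them in fresh YCF and 9 in fresh ACF, and overlaps Vps51, so that its level is uncertain.

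**Figure D2:**
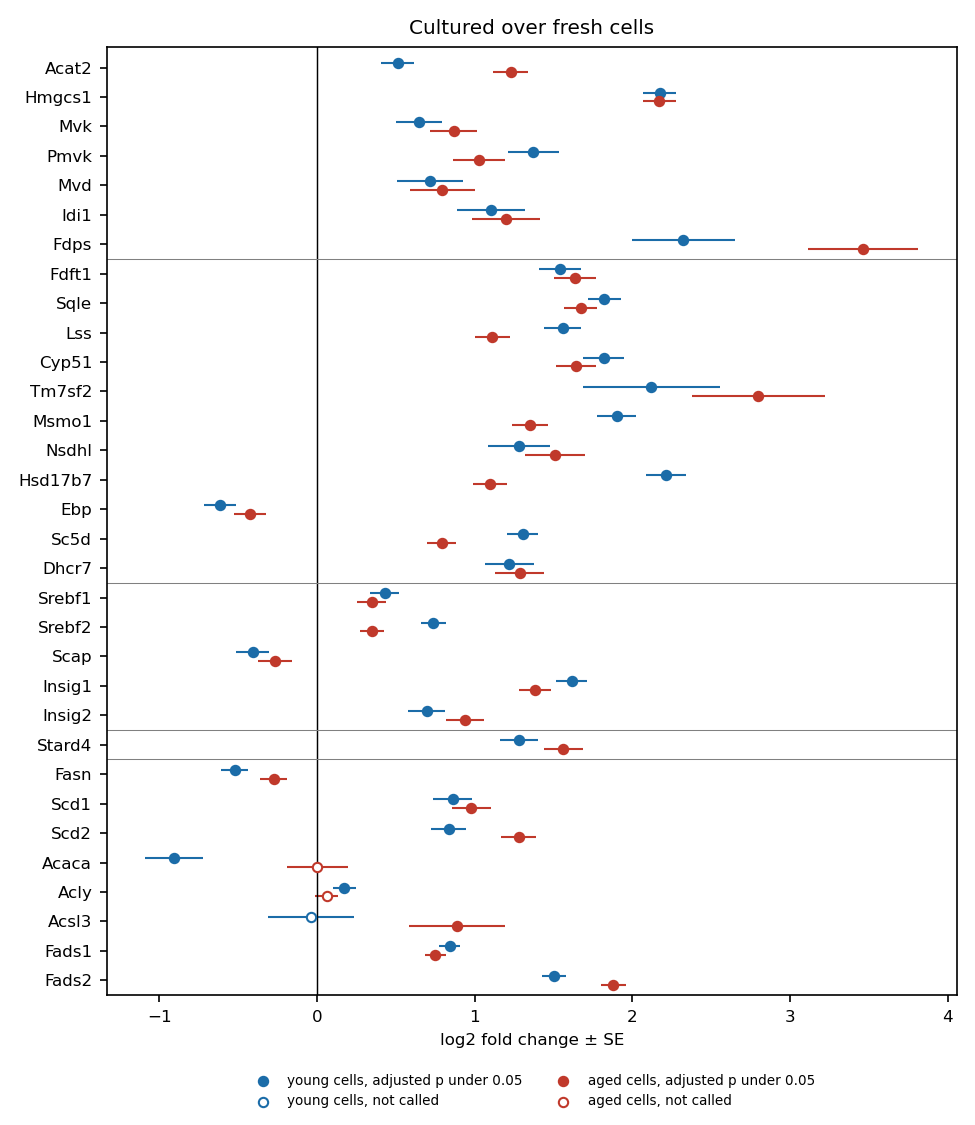
Log2 fold change ± SE of cultured over fresh cells for the 32 genes, in young cells (blue) and aged cells (red), as the mean over the 4 substrates against the fresh group of the same age. Filled points are called at an adjusted p under 0.05 by edgeR's quasi-likelihood test. Most points lie right of 0, and Ebp, Scap and Fasn lie left of it at both ages.

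Within the SREBP machinery, 4 of 5 genes rose and Scap fell at both ages. Insig1, the feedback gene, had 48.2, 56.9 and 47.9 CPM in fresh YCF and 59.3, 52.9 and 46.5 in fresh ACF. In culture Insig1 had 132 and 109 CPM in YCF on SoftY, 151, 146 and 146 on StiffY, 221, 196 and 172 on SoftA and 191, 171 and 158 on StiffA. In ACF it had 116, 142 and 130.3 CPM on SoftY, 116, 124 and 130.1 on StiffY, 155, 137 and 134 on SoftA and 167, 150.4 and 163 on StiffA. Fresh and cultured libraries did not overlap, and the change was 1.61 ± 0.10 (adjusted p = 1.32e-14) in young and 1.38 ± 0.10 (adjusted p = 3.60e-13) in aged cells. Insig2, its paralogue, rose by 0.94 ± 0.12 (adjusted p = 7.39e-08) in aged cells.

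The 2 transcription factor genes moved less than their targets Hmgcs1 and Insig1 in these fits. Srebf2 had 133, 127 and 154 CPM in fresh YCF and 192, 168 and 174 CPM in fresh ACF, and 183 to 263 CPM in the 11 cultured YCF libraries. It rose by 0.74 ± 0.08 (adjusted p = 2.01e-09) in young and 0.35 ± 0.08 (adjusted p = 0.000188) in aged cells. Srebf1 had 83.3, 75.4 and 94.9 CPM in fresh YCF, 92.1, 99.5 and 77.2 CPM in fresh ACF and 91.8 to 131 CPM in cultured YCF, and rose by 0.43 ± 0.09 (adjusted p = 0.000244) and 0.35 ± 0.09 (adjusted p = 0.00178). Its gene overlaps Rai1, which held 927 counts over all libraries against 7100 for Srebf1. Scap, the escort gene, fell by 0.41 ± 0.11 (adjusted p = 0.00175) in young cells and fell by 0.27 ± 0.11 (adjusted p = 0.0337) in aged cells. The aged call of Scap was lost in 9 of 15 omissions of a single library, with an adjusted p of up to 0.150.

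Stard4, which carries cholesterol through the cytosol, had 33.7, 35.8 and 27.2 CPM in fresh YCF and 28.2, 31.2 and 25.6 CPM in fresh ACF. In YCF it had 57.4 and 68.7 CPM on SoftY, 77.9, 85.5 and 79.0 on StiffY, 89.5, 82.7 and 101 on SoftA and 70.3, 88.2 and 99.9 on StiffA. In ACF it had 57.8, 74.5 and 61.4 CPM on SoftY, 80.1, 73.3 and 75.1 on StiffY, 86.4, 101 and 105 on SoftA and 98.7, 115 and 92.4 on StiffA. Every cultured library lay above every fresh one, and Stard4 rose by 1.28 ± 0.12 (adjusted p = 1.39e-10) in young and 1.56 ± 0.12 (adjusted p = 2.93e-12) in aged cells.

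The 8 fatty acid genes split. In young cells 5 rose and 2 fell, and in aged cells 5 rose and 1 fell. The rise of Acly in young cells (0.18, adjusted p = 0.0492) was lost in 8 of 14 omissions of a single library (0.15 to 0.24, adjusted p of up to 0.150) and with only the groups compared in the fit (adjusted p = 0.0608). That of Acsl3 in aged cells (0.89, adjusted p = 0.0127) was lost without fresh ACF replicate 2 (0.44, adjusted p = 0.189). Fads2, a desaturase of polyunsaturated fatty acids, rose by 1.503 ± 0.08 (adjusted p = 1.46e-16) and 1.88 ± 0.08 (adjusted p = 7.60e-19), and Scd2, a stearoyl-CoA desaturase, rose by 1.28 ± 0.11 (adjusted p = 2.66e-11) in aged cells. Fasn, the fatty acid synthase, had 179, 184 and 210.5 CPM in fresh YCF and 195, 184 and 179.9 CPM in fresh ACF. In YCF Fasn had 90.7 and 111 CPM on SoftY, 148, 125 and 141 on StiffY, 130.4, 133 and 159 on SoftA and 161, 168 and 154 on StiffA, all below the fresh libraries. In ACF it had 138, 134 and 124 CPM on SoftY, 127, 154 and 122 on StiffY, 154, 183 and 163 on SoftA and 209.7, 187 and 166 on StiffA, where 3 libraries on aged ECM reached the fresh range. Fasn fell by 0.52 ± 0.08 (adjusted p = 4.42e-06) in young cells and fell by 0.27 ± 0.08 (adjusted p = 0.00572) in aged cells. Acaca, the acetyl-CoA carboxylase ahead of Fasn, fell by 0.90 ± 0.18 (adjusted p = 0.000102) in young cells and stood at 0.00 ± 0.19 (adjusted p = 0.993) in aged cells, where it was not called. Acsl3 (young cells) and Acly (aged cells) were not called either, at -0.04 ± 0.27 (adjusted p = 0.914) and 0.06 ± 0.07 (adjusted p = 0.480).

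SREBP proteins bind a sterol regulatory element in the promoters of their targets, often beside a CCAAT box bound by NF-Y. RefSeq's promoter table (GRCm38.p6, an older build than that of the counts) held 25 of the 32 genes. It had no entry for Fdps, Fdft1, Sqle, Stard4, Scd1, Scd2 or Fads1, which were not searched. The 250 bases upstream of the annotated start of the 25 genes were searched on both strands. The letters sought were CACNCCAC (a core of the sterol element), CCAAT (the NF-Y box) and GGGCGG (the GC box), and overlapping copies were allowed. CACNCCAC was found in 3 of 25 genes (12%), against 5.29% of 32851 promoters of the same length. CCAAT was found in 20 of 25 (80%, against 33.8%) and GGGCGG in 22 of 25 (88%, against 32.7%). A gene was counted if any of its promoter entries matched, while the share of all promoters is over single entries. The 2 shares are thus in unlike units, and a gene with several entries had more chances of a match. These are matches of letters and not shown binding sites. The 3 genes with CACNCCAC were Acat2, Hmgcs1 and Insig1. All 3 were higher in culture at both ages, as were 27 of all 32 genes at each age. The promoters of the 3 are shown with CACNCCAC and CCAAT copies of either strand in capitals, where no 2 copies overlap. Acat2 lies on the minus strand (chr17:12960726-12960975), Hmgcs1 on the plus strand (chr13:119690101-119690350) and Insig1 on the plus strand (chr5:28071162-28071411), each printed 5′ to 3′ along its gene.
Acat2: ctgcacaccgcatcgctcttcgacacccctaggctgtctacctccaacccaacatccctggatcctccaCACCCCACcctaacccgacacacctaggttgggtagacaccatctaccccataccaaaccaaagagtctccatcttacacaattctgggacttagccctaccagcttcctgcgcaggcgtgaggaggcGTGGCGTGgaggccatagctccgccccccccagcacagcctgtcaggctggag
Hmgcs1: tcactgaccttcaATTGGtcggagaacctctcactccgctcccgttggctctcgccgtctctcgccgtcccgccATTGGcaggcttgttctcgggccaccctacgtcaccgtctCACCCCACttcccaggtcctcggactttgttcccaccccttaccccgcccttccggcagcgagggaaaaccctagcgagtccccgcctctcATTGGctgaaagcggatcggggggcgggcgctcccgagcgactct
Insig1: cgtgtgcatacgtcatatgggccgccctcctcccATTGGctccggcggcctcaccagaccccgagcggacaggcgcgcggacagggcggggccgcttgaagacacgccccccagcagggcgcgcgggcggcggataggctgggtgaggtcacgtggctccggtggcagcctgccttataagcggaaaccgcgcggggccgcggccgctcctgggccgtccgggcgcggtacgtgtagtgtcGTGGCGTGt
Acat2 held 1 copy on each strand, the nearest ending 46 bases before the start. Hmgcs1 held a copy ending 129 bases before the start and 3 CCAAT boxes, all on the other strand, and Insig1 a copy on the other strand ending 2 bases before the start.

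Fresh aged cells differed from fresh young cells in 8 of the 30 genes that passed the filter on low counts (Fdps and Tm7sf2 did not), with 6 higher and 2 lower. This share is near the background, since 31.8% of all 11786 genes tested were called, 15.0% higher and 16.8% lower. On CPM scaled over the 6 fresh libraries, in 7 of the 30 every fresh ACF library lay above every fresh YCF library (21.4% of all genes) and in 4 below (23.3%). On the CPM printed here, scaled over all 29 libraries, 8 lay above, with Sqle added, and 3 below, without Ebp. The median of the 30 was 0.03 against -0.02 over all genes. By arm, 4 of 11 squalene to sterol genes (Tm7sf2 not tested) were among the 6 that rose, and none of the 7 mevalonate genes (Fdps not tested).

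Hsd17b7 had 29.9, 22.5 and 15.5 CPM in fresh YCF and 67.2, 61.6 and 66.5 CPM in fresh ACF, with no overlap, and rose by 1.46 ± 0.19 (adjusted p = 3.39e-05). Sc5d, the desaturase that acts late in the pathway, had 74.3, 81.7 and 78.0 CPM and 149, 144 and 145 CPM, again without overlap, and rose by 0.87 ± 0.09 (adjusted p = 3.17e-06). Msmo1 rose by 0.71 ± 0.14 (adjusted p = 0.00132), Lss, the lanosterol synthase, by 0.58 ± 0.16 (adjusted p = 0.0138), and Acly, which makes cytosolic acetyl-CoA, by 0.27 ± 0.07 (adjusted p = 0.00601). Srebf2 rose by 0.34 ± 0.09 (adjusted p = 0.0121), a call that was lost without fresh YCF replicate 2 (adjusted p = 0.0592) or without fresh ACF replicate 1 (adjusted p = 0.0656).

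Acat2, the thiolase that opens the mevalonate arm, had 76.4, 70.2 and 59.7 CPM in fresh YCF and 49.4, 53.3 and 46.1 CPM in fresh ACF and fell by 0.51 ± 0.13 (adjusted p = 0.00746). Fads2 fell by 0.45 ± 0.10 (adjusted p = 0.00326). Hmgcs1, Sqle, Insig1 and Scd1 were not called, at -0.02 ± 0.17 (adjusted p = 0.954), 0.28 ± 0.12 (adjusted p = 0.0891), 0.01 ± 0.14 (adjusted p = 0.961) and -0.03 ± 0.18 (adjusted p = 0.924). In the same comparison 5 of 8 macrophage markers tested were called higher, and of 10 fibroblast markers 3 were called higher and 6 lower. The part of these cells in the values above was not tested.

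The culture response itself was compared between ages. For 9 of 32 genes it differed, 4 with a higher and 5 with a lower log2 response in aged cells, while 20.6% of all genes tested differed, 10.5% with a higher and 10.1% with a lower response. The share among the 32 was thus not far above the background. This comparison uses the same fresh libraries as the comparison of fresh cells, so the values belong together. Markers differed in the same comparison: 5 of 8 macrophage markers tested had a lower response in aged cells, 3 of 5 endothelial markers a higher one, and of 10 fibroblast markers 5 had a higher and 3 a lower one, and their part was not tested. Hsd17b7 rose by 1.10 in aged against 2.21 in young cells (difference -1.12 ± 0.17, adjusted p = 5.76e-06). Its levels in YCF were 99.6 and 70.8 CPM on SoftY, 106, 97.6 and 97.3 on StiffY, 113, 127 and 121 on SoftA and 138, 118 and 123 on StiffA, and in ACF 121, 135 and 116 CPM on SoftY, 115, 137 and 129 on StiffY, 145, 152 and 142 on SoftA and 175, 152 and 168 on StiffA. Averaged over substrates, Hsd17b7 was higher in cultured aged cells by 0.37 ± 0.06 (adjusted p = 6.56e-05), a smaller difference than in fresh cells. Sc5d (-0.51 ± 0.13, adjusted p = 0.00387), Msmo1 (-0.55 ± 0.16, adjusted p = 0.0142), Lss (-0.44 ± 0.16, adjusted p = 0.0474) and Srebf2 (-0.39 ± 0.11, adjusted p = 0.00810) also had a lower response in aged cells, and each of these 5 was higher in fresh aged cells.

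Acat2 had a higher response in aged cells, at 1.23 against 0.51 (difference 0.72 ± 0.15, adjusted p = 0.000578), and was lower in fresh aged cells. In YCF it had 94.0 and 72.1 CPM on SoftY, 104, 104 and 90.7 on StiffY, 91.0, 96.1 and 119 on SoftA and 108, 95.4 and 128 on StiffA, and in ACF 102, 95.3 and 99.6 CPM on SoftY, 111, 99.9 and 88.5 on StiffY, 137, 132 and 117 on SoftA and 154, 146 and 134 on StiffA. All cultured ACF libraries lay above the fresh ACF libraries, while the lowest cultured YCF library lay within the fresh YCF range. Fads2 (0.38 ± 0.10, adjusted p = 0.00885), Acaca (0.91 ± 0.27, adjusted p = 0.0148) and Scd2 (0.44 ± 0.15, adjusted p = 0.0338) also had a higher log2 response in aged cells, where Acaca was not called with culture. Of the 9 calls, those of Acat2, Hsd17b7 and Sc5d held under every alternative run. Lss lost its call in 24 of 29 omissions of a single library, with values of -0.56 to -0.32 and an adjusted p of up to 0.204. Msmo1 lost its call without fresh ACF replicate 2, fresh ACF replicate 3 or fresh YCF replicate 1 (values of -0.66 to -0.45 over all omissions, adjusted p of up to 0.0729). Scd2 lost its call without fresh ACF replicate 1 or fresh YCF replicate 1 or 3 (0.32 to 0.57, adjusted p of up to 0.172), and Acaca without fresh YCF replicate 2 or fresh ACF replicate 1 (0.76 to 1.10, adjusted p of up to 0.0762). Srebf2 lost its call without fresh YCF replicate 2 (adjusted p = 0.0902) and Fads2 without fresh ACF replicate 2 (adjusted p = 0.0519).

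Aged ECM was compared with young ECM within each cell age, as the mean over soft and stiff gels. In aged cells 20 of 32 genes rose on aged ECM and none fell, while 7.44% of all 12841 genes tested were called, 4.14% higher and 3.30% lower. The median of the 32 was 0.37 against -0.01 over all genes. In 13 of the 32 all 6 libraries on aged ECM lay above all 6 on young ECM, as in 2.72% of all genes, and in none all 6 lay below, as in 1.53% of all genes. The rises came from each arm: 4 of 7 mevalonate genes, 8 of 11 squalene to sterol genes, 2 of 5 genes of the SREBP machinery, Stard4, and 5 of 8 fatty acid genes.

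Idi1 had 20.7, 24.7 and 18.3 CPM on SoftY and 22.6, 19.0 and 22.5 on StiffY, against 29.3, 30.1 and 42.8 on SoftA and 33.6, 29.1 and 30.3 on StiffA, with no overlap, and rose by 0.64 ± 0.14 (adjusted p = 0.00573). Its processed copy Idi1-ps1 averaged 14.8 ± 3.10 CPM on SoftY, 15.0 ± 1.01 on StiffY, 22.5 ± 2.60 on SoftA and 23.9 ± 2.73 on StiffA (SD, n = 3 each). Mvd, the mevalonate diphosphate decarboxylase, rose by 0.60 ± 0.17 (adjusted p = 0.0279), a call lost in 7 of 12 omissions of a single library, with log2 values of 0.53 to 0.69 and an adjusted p of up to 0.0957. Hmgcs1, whose libraries are given above, rose by 0.41 ± 0.07 (adjusted p = 0.000458).

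Cyp51 had 109, 99.2 and 105 CPM on SoftY and 112, 108 and 91.8 on StiffY, against 139.6, 138 and 175 on SoftA and 159, 140.3 and 152 on StiffA, and rose by 0.55 ± 0.09 (adjusted p = 0.000302). Its gene overlaps Akap9, which held 7562 counts against 6811 for Cyp51, and the strand setting of the counts is not given in the sources used here. Sc5d had 211, 196 and 208 CPM on SoftY, 226, 225 and 207 on StiffY, 279.9, 288 and 326 on SoftA and 309.9, 312 and 294 on StiffA, and rose by 0.52 ± 0.08 (adjusted p = 0.000147). For both genes the young and aged ECM libraries did not overlap.

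Stard4 rose by 0.53 ± 0.10 (adjusted p = 0.000696), Scd2 by 0.43 ± 0.09 (adjusted p = 0.00293) and Fasn by 0.42 ± 0.08 (adjusted p = 0.00175), each without overlap between the libraries on young and on aged ECM. For Fasn this held only on CPM scaled over the cultured libraries. On the CPM printed here its highest ACF library on young ECM had 154.1 and its lowest on aged ECM 153.8. Sqle, with 281, 311 and 238 CPM on SoftY, 305, 232 and 252 on StiffY, 316, 327 and 257 on SoftA and 347, 393 and 402 on StiffA, rose by 0.34 ± 0.08 (adjusted p = 0.00937), and its libraries overlapped. Srebf2 had 208, 196 and 209 CPM on SoftY, 239, 216 and 194 on StiffY, 252, 251 and 232 on SoftA and 234, 270.3 and 232 on StiffA. Its rise was 0.23 ± 0.07 (adjusted p = 0.0286) and that of Insig1 0.26 ± 0.08 (adjusted p = 0.0373). Both calls depended on single libraries, with 7 of 12 omissions ending that of Srebf2 (adjusted p of up to 0.142) and 8 of 12 that of Insig1 (adjusted p of up to 0.113). Fads1 and Dhcr7, the last enzyme of one branch of cholesterol synthesis, lost their calls in 9 of 12 and 2 of 12 omissions, and the other 15 calls held under every alternative run.

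12 of the 32 genes were not called in aged cells: Mvk, Pmvk, Fdps, Tm7sf2, Nsdhl, Ebp, Srebf1, Scap, Insig2, Scd1, Acaca and Acsl3. Srebf1 had 113, 108 and 134 CPM on SoftY, 113, 106 and 104 on StiffY, 111, 126 and 112 on SoftA and 116, 118 and 103 on StiffA, a difference of 0.03 ± 0.08. Scap (-0.04 ± 0.11), Insig2 (-0.03 ± 0.09) and Scd1 (-0.20 ± 0.08) lay below 0, as did Acsl3 at -0.01 ± 0.22. Endothelial markers moved with the aged ECM in aged cells: 4 of 5 tested were called higher, and the sum over 6 markers was 30.2 to 46.5 CPM on SoftY, 52.2 to 66.1 on StiffY, 102 to 113 on SoftA and 83.4 to 109 on StiffA. Of 10 fibroblast markers 3 were called higher and 2 lower, and the part of endothelial cells in the sterol gene values was not tested.

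**Figure D3:**
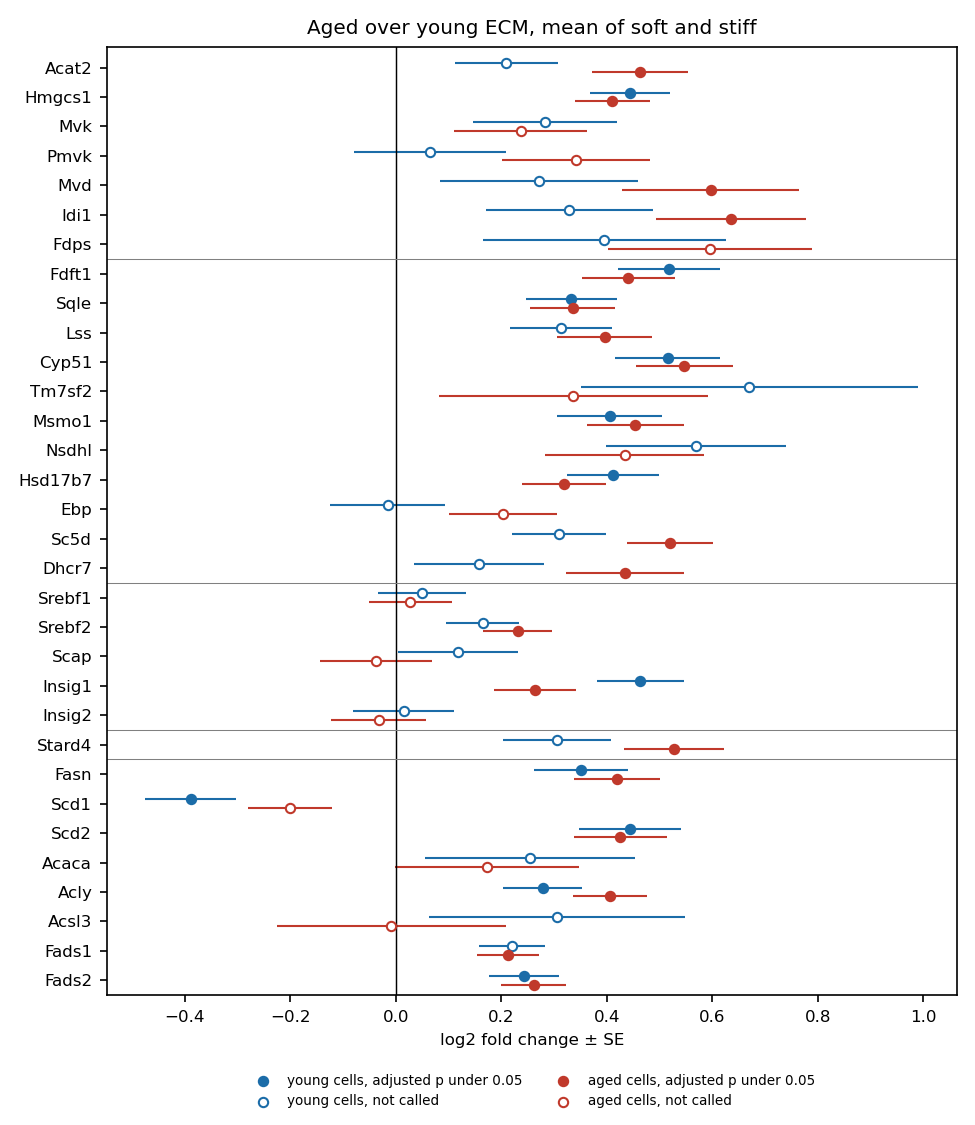
Log2 fold change ± SE of aged over young ECM for the 32 genes in young cells (blue) and aged cells (red), averaged over soft and stiff gels. Filled points are called at an adjusted p under 0.05 by edgeR's quasi-likelihood test. Most points of both colours lie right of 0, up to 0.64 in aged cells (Idi1) and 0.67 in young cells (Tm7sf2, not called), and Scd1 lies left of 0 in both.

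In young cells 11 of 32 genes rose on aged ECM and Scd1 fell, while 2.49% of all genes tested were called, 1.67% higher and 0.825% lower. The median of the 32 was 0.31 against 0.00 over all genes, and in 4 genes (0.833% of all genes) every library on aged ECM lay above every library on young ECM: Fdft1, Hsd17b7, Insig1 and Scd2. None lay below throughout (0.335% of all genes). On CPM scaled over all 29 libraries Hmgcs1 and Cyp51 also lay apart, by narrow margins. Hmgcs1 rose by 0.44 ± 0.08 (adjusted p = 0.000961) and Insig1 by 0.46 ± 0.08 (adjusted p = 0.00133), and these 2 calls held under every alternative run. Fdft1, the squalene synthase, rose by 0.52 ± 0.10 (adjusted p = 0.00208) and Cyp51 by 0.52 ± 0.10 (adjusted p = 0.00266). Fdft1 overlaps Ctsb, a lysosomal protease gene with 104057 counts against 5865 for Fdft1, so that its counts are uncertain.

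Scd2 in YCF had 101 and 181 CPM on SoftY, 189, 184 and 169 on StiffY, 208, 219.7 and 231 on SoftA and 206, 226 and 212 on StiffA, and rose by 0.44 ± 0.10 (adjusted p = 0.00883). The 2 SoftY libraries lay far apart, and without YCF on SoftY replicate 1 the value was 0.26 (adjusted p = 0.111). Scd1 fell by 0.39 ± 0.09 (adjusted p = 0.0105), and without the same library its value was -0.29 (adjusted p = 0.148). Without that library 5 genes were called in place of 12, and without replicate 2 of the same group 8. With only the groups compared in the fit 5 were called, and without the 4 libraries under 1500000 counts, which leaves 1 library of YCF on SoftA, 3 were called. Srebf2 and Stard4 were not called, at 0.16 ± 0.07 (adjusted p = 0.282) and 0.31 ± 0.10 (adjusted p = 0.134).

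The ECM difference was not shown to differ between young and aged cells. edgeR's quasi-likelihood test of that interaction called none of the 32 genes (none at an unadjusted p under 0.05, and none by DESeq2), while 0.0935% of all genes were called, 0.0234% higher and 0.0701% lower. Differences of the 2 responses, aged minus young cells, ran from -0.33 for Tm7sf2 to 0.33 for Mvd. For Idi1 the difference was 0.31 ± 0.21, for Hmgcs1 -0.03 ± 0.10 and for Insig1 -0.20 ± 0.11.

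The summed level of the 18 sterol enzyme genes was 573 to 582 CPM in the 3 fresh YCF libraries and 705 to 757 CPM in fresh ACF. In YCF it was 1210.5 and 1218 CPM on SoftY, 1462 to 1546 on StiffY, 1616 to 1862 on SoftA and 1697 to 1867 on StiffA. In ACF it was 1435 to 1571 CPM on SoftY, 1489 to 1576 on StiffY, 1899 to 1999 on SoftA and 2111 to 2127 on StiffA. At each age the libraries on aged ECM lay above those on young ECM, and the ratio of group means of SoftA over SoftY was 1.42 in YCF and 1.28 in ACF, and of StiffA over StiffY 1.16 and 1.38. The ratio of StiffY over SoftY was 1.24 in YCF, where SoftY had 2 libraries, and 1.01 in ACF. On aged ECM the soft and stiff libraries overlapped in YCF and not in ACF. The sum is led by the genes with most counts and carries no test.

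**Figure D4:**
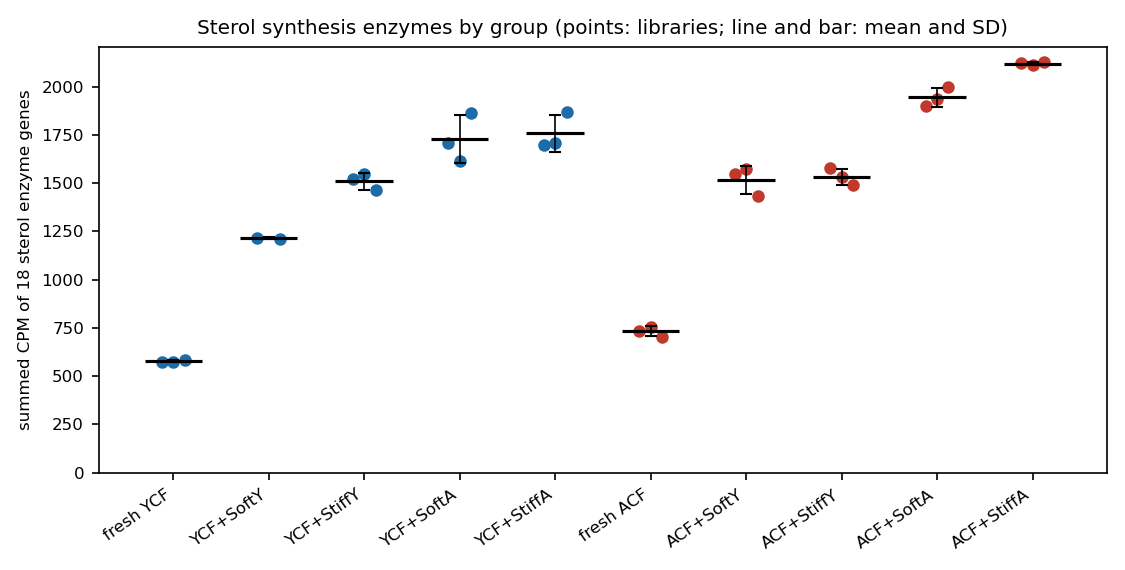
Summed CPM of the 18 sterol enzyme genes in each library (points) with the mean and SD of each group (line and bar; n = 3, and 2 for YCF on SoftY), in young cells (blue) and aged cells (red). Fresh groups average 576 and 732 CPM and cultured groups 1214 to 2119.8 CPM, and within each age the groups on aged ECM lie highest.

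StiffA and SoftY join the aged and the young state of both substrate properties, and their comparison shares libraries with those of ECM and stiffness. In young cells 15 of 32 genes were higher and 1 lower on StiffA (5.26% of all genes called, 2.99% higher and 2.27% lower), and in aged cells 15 were higher and none lower (4.21% called, 2.24% higher and 1.97% lower). In young cells Mvk, the mevalonate kinase, rose by 0.73 ± 0.20 (adjusted p = 0.0279), Hmgcs1 by 0.58 ± 0.11 (adjusted p = 0.00171), Cyp51 by 0.71 ± 0.15 (adjusted p = 0.00322) and Fdft1 by 0.69 ± 0.14 (adjusted p = 0.00329). Insig1 rose by 0.52 ± 0.12 (adjusted p = 0.00931), Srebf2 by 0.36 ± 0.10 (adjusted p = 0.0405) and Fasn by 0.68 ± 0.13 (adjusted p = 0.00172), and Scd1 fell by 0.96 ± 0.12 (adjusted p = 8.05e-06). With 2 SoftY libraries the young count was unstable: 5 calls were left without replicate 1 of YCF on SoftY, 10 without replicate 2 and 8 with only the groups compared in the fit. The calls of Scd1 and Fads2 held under every alternative run, and those of Mvk and Srebf2 were lost in each of 5 omissions.

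In aged cells Sc5d rose by 0.59 ± 0.12 (adjusted p = 0.00255), Lss by 0.57 ± 0.12 (adjusted p = 0.00656), Acat2 by 0.56 ± 0.13 (adjusted p = 0.00934), Hmgcs1 by 0.36 ± 0.10 (adjusted p = 0.0384), Stard4 by 0.68 ± 0.13 (adjusted p = 0.00264), Scd2 by 0.52 ± 0.12 (adjusted p = 0.0139) and Fasn by 0.52 ± 0.12 (adjusted p = 0.00759). The count fell to 6 without ACF on SoftY replicate 3 and to 7 without ACF on StiffA replicate 1. The calls of Sc5d and Stard4, with Fdft1 and Acly, held under every alternative run. Those of Lss, Acat2 and Fasn were lost in 2 of 6 omissions, that of Scd2 in 4 and that of Hmgcs1 in 5. In the same comparison 4 of 5 endothelial markers tested were called higher (median of the 5 log2 changes 1.45), and of 10 fibroblast markers 2 were called higher and 2 lower. In young cells 1 of 10 fibroblast markers was called higher and 3 lower, 1 of 4 macrophage markers lower and none of 5 endothelial markers. The part of these cells was not tested.

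Averaged over ECM, gel stiffness was called for few of these genes. In young cells 27 of the 32 values were above 0, with a median of 0.15 against 0.00 over all genes. In aged cells 22 were above 0, with a median of 0.08 against 0.00. In young cells Fads2 rose by 0.36 ± 0.07 (adjusted p = 0.00112), Fasn rose by 0.33 ± 0.09 (adjusted p = 0.0362) and Scd1 fell by 0.57 ± 0.09 (adjusted p = 0.000108) on stiff over soft gels, 3 of 32 against 3.56% of all genes (1.66% higher and 1.90% lower). No member had all stiff libraries above all soft ones (0.693% of all genes) or below them (0.833%). The call of Fasn was lost in 7 of 11 omissions of a single library, with log2 values of 0.25 to 0.40 and an adjusted p of up to 0.274. In aged cells edgeR's quasi-likelihood test called none of the 32 (1 at an unadjusted p under 0.05, none by DESeq2), against 0.296% of all genes (0.00779% higher and 0.288% lower). No member was without overlap there (0.0857% of all genes above and 0.273% below).

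Scd1 was high on 1 combination of gel and ECM. It had 51.6, 78.0 and 64.4 CPM in fresh YCF and 77.1, 71.6 and 46.9 CPM in fresh ACF. In YCF it had 231 and 182 CPM on SoftY, against 74.7, 89.8 and 101 on StiffY, 106, 94.0 and 100.1 on SoftA and 99.0, 111 and 110.0 on StiffA. In ACF it had 125, 120.0 and 132 CPM on SoftY, 161, 133 and 162 on StiffY, 119, 127 and 119.8 on SoftA and 111, 119 and 120.3 on StiffA. The 2 libraries of YCF on SoftY thus stood above all other libraries of the series, and the ACF cultured libraries lay between them and the other cultured YCF libraries.

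The stiffness by ECM interaction of Scd1 in young cells was 1.33 ± 0.17 (adjusted p = 4.46e-05), and with all libraries edgeR called no other member (0.615% of all genes, 0.498% higher and 0.117% lower). That count was 2 by DESeq2, 1 to 3 over omissions of a single library (3 without YCF on SoftA replicate 2) and 4 with the library number as a block. At an unadjusted p under 0.05 there were 11 of the 32, and 7 of the 32 values were above 0, with a median of -0.25 against 0.01 over all genes, so that most members lay on the other side of 0 from Scd1. Its stiffness response differed between cell ages by 0.68 ± 0.12 (adjusted p = 0.00179), again as the only member called (0.787% of all genes, 0.319% higher and 0.467% lower). Both calls of Scd1 held under every alternative run, and they rest on 2 libraries. In aged cells the stiffness by ECM interaction called none of the 32 (1 at an unadjusted p under 0.05, none by DESeq2, and 0.0234% of all genes, each lower), with Scd1 at -0.33 ± 0.16. Scd1 was not called for stiffness or ECM in aged cells, at 0.11 ± 0.08 and -0.20 ± 0.08.

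Scd1 is also abundant in fat cells, and the 5 adipocyte markers were low throughout, with sums of 3.91 and 5.61 CPM in YCF on SoftY and at most 4.28 CPM in any other library. In YCF on SoftY these sums were mostly Plin1 with 19 counts, a gene that had 9 counts in ACF on StiffY, where Scd1 was 133 to 162 CPM. Adipoq and Cfd had 3 counts each, spread over both libraries of YCF on SoftY, and 0 in all other groups, and Lep had none in any library. In the comparison of stiff and soft gels in young cells 4 of 10 fibroblast markers, 1 of 5 endothelial and 1 of 4 macrophage markers tested were called lower. The part of any of these in the Scd1 values was not tested. Scd2, the paralogue of Scd1 on the same chromosome, did not show the pattern: its mean was lowest of the cultured YCF groups on SoftY and it stood at 0.17 ± 0.10 (adjusted p = 0.432) for stiffness in young cells.

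**Figure D5:**
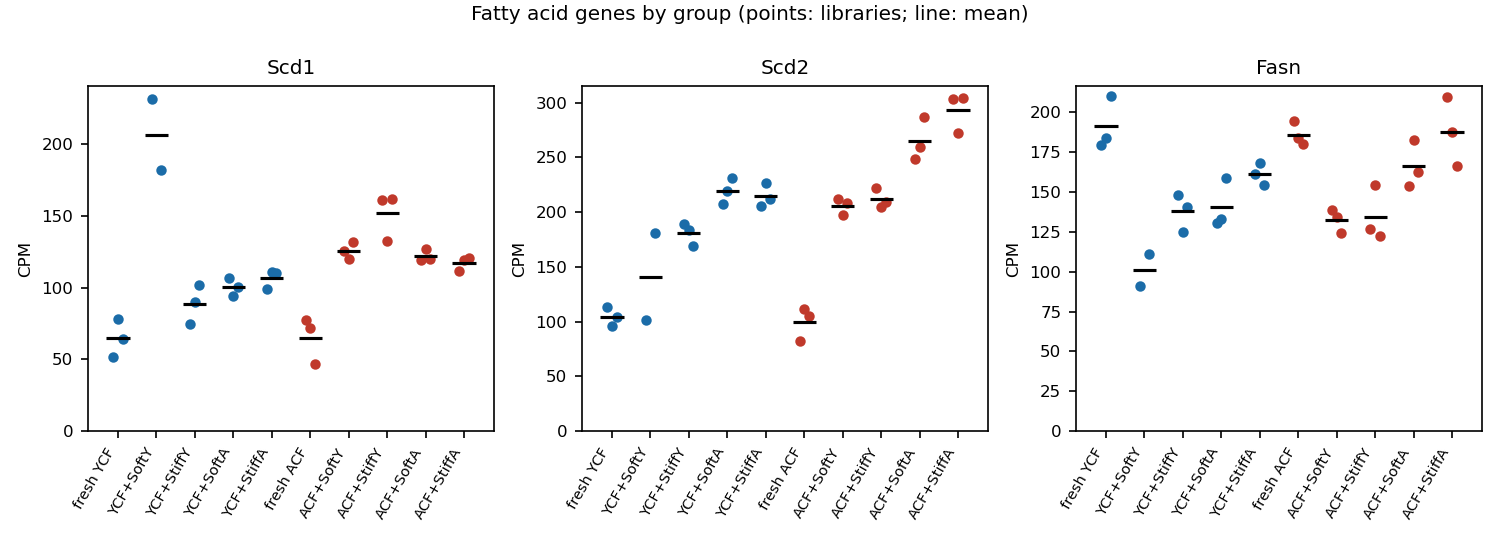
CPM of Scd1, Scd2 and Fasn in each library (points) with group means (lines) in young cells (blue) and aged cells (red). Scd1 stands at 231 and 182 CPM in YCF on SoftY and at 111 to 162 CPM in cultured ACF, while Scd2 and Fasn are lowest of the cultured young groups on SoftY.

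Averaged over the 4 substrates, cultured aged cells differed from cultured young cells in 11 of 32 genes, with 9 higher and 2 lower, against 15.0% of all genes called, 6.52% higher and 8.50% lower. No gene of the 32 had all 12 aged libraries above all 11 young ones (0.218% of all genes) or below them (0.498%). The 12 and 11 libraries were counted as independent, and where same-numbered ones share a source the adjusted p-values given here would be too small. Nsdhl, a sterol dehydrogenase, rose by 0.43 ± 0.11 (adjusted p = 0.0117), Sc5d by 0.38 ± 0.06 (adjusted p = 6.29e-05), Fdps by 0.61 ± 0.15 (adjusted p = 0.00626), Scd2 by 0.37 ± 0.07 (adjusted p = 0.000251) and Fasn by 0.20 ± 0.06 (adjusted p = 0.0260). Scd2 had 212, 197 and 208 CPM in ACF on SoftY, 222, 205 and 209 on StiffY, 248, 259 and 287 on SoftA and 303, 272 and 304 on StiffA, so that its libraries on aged ECM stood highest. Pmvk, the phosphomevalonate kinase, fell by 0.34 ± 0.10 (adjusted p = 0.0231), and Insig1 fell by 0.20 ± 0.06 (adjusted p = 0.0202), as the only called gene of the SREBP machinery.

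4 of the 11 calls, those of Fdps, Hsd17b7, Sc5d and Scd2, held under every alternative run. None of these runs answers whether same-numbered libraries share a source. Without YCF on SoftY replicate 1 the count was 5, and Nsdhl (0.36, adjusted p = 0.0530), Fasn (0.17, adjusted p = 0.105), Pmvk (-0.26, adjusted p = 0.133) and Insig1 (-0.15, adjusted p = 0.124) were among those lost. Hmgcs1 and Sqle were not called between cultured ages, at 0.01 ± 0.05 (adjusted p = 0.924) and 0.16 ± 0.06 (adjusted p = 0.0706). In this comparison 5 of 5 endothelial markers tested were called higher in aged cells and 7 of 10 fibroblast markers lower, and their part was not tested.

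Other genes of the pathway were read from 4 further lists. Among 14 other SREBP-regulated genes, culture of young cells raised 9 and lowered 1, and culture of aged cells raised 9 and lowered 4. Over all genes 27.1% were called higher and 29.9% lower in young culture, 29.9% and 32.5% in aged culture, 15.0% and 16.8% in fresh ageing, and 6.52% and 8.50% between cultured ages, and the counts of the 4 lists stand against these. The medians of the 14 were 0.48 in young and 0.40 in aged culture, against -0.03 and -0.01 over all genes. Lpin1, a phosphatidate phosphatase, led at both ages (2.01 ± 0.15 and 2.60 ± 0.16), followed by Me1, the malic enzyme (0.98 ± 0.12), and Aacs, which makes acetoacetyl-CoA from acetoacetate (0.84 ± 0.10), in young cells. Aacs rose by 0.94 ± 0.10 in aged cells, and Mid1ip1, a regulator of acetyl-CoA carboxylase, fell by 0.75 ± 0.08 there. In fresh cells 5 rose and 1 fell with age, led by Mid1ip1 (0.76 ± 0.10), the citrate carrier gene Slc25a1 (0.67 ± 0.11) and Rdh11 (0.75 ± 0.16), and in cultured cells Slc25a1 rose by 0.20 ± 0.06 and Mid1ip1 fell by 0.35 ± 0.06 with age. The largest adjusted p among these named calls was that of Slc25a1 in cultured cells, at 0.0296.

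Of 12 genes of SREBP processing and sterol sensing, 5 were higher and 3 lower with culture at the young age, 3 higher and 3 lower at the aged one, and 1 higher and 1 lower in fresh ageing. This is near the 56.9% of all genes called in young culture, and below the 62.4% in aged culture and the 31.8% in fresh ageing. Mbtps1, the protease that opens SREBP processing, rose by 0.58 ± 0.10 (adjusted p = 8.43e-06) and 0.70 ± 0.10 (adjusted p = 4.18e-07) with culture, and Mbtps2, which completes it, fell by 0.80 ± 0.13 (adjusted p = 7.01e-06) in young cells and fell by 0.66 ± 0.13 (adjusted p = 7.27e-05) in aged cells. Erlin1, which binds the SREBP complex, fell by 0.66 ± 0.09 (adjusted p = 3.93e-07) in young culture and fell by 0.56 ± 0.11 (adjusted p = 0.00158) in fresh ageing, and Pgrmc1 rose by 0.68 ± 0.09 (adjusted p = 3.20e-05) in the latter. None of the 12 was called between cultured ages by edgeR's quasi-likelihood test or by DESeq2, and 1 had an unadjusted p under 0.05.

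Genes of sterol efflux, storage and uptake went in both directions. Of 18, 6 were higher and 7 lower in young culture, and 6 higher and 8 lower in aged culture. These shares lie above the 56.9% and 62.4% of all genes called. Soat1, which esterifies cholesterol for storage, fell by 1.23 ± 0.09 (adjusted p = 1.58e-12) in young cells and fell by 1.59 ± 0.09 (adjusted p = 1.13e-15) in aged cells. Lipa, the lysosomal lipase, and Lrp1, a lipoprotein receptor, rose in young culture by 0.84 ± 0.08 and 0.73 ± 0.07. Star, which moves cholesterol into mitochondria, and Ch25h, which makes an oxysterol, had lower levels in aged culture, where Star fell by 6.77 ± 0.19 (adjusted p = 1.31e-23) and Ch25h fell by 3.35 ± 0.10 (adjusted p = 6.08e-23). In fresh ageing 7 of 16 tested rose and 3 fell, a share above the 31.8% of all genes called. Star, Npc2 and Ch25h stood there at 3.94 ± 0.15, 0.85 ± 0.06 and 0.92 ± 0.07. In cultured cells 1 rose and 4 fell with age, led by Ch25h, which fell by 1.79 ± 0.09 (adjusted p = 5.34e-14). Of 10 genes of the isoprenoid branches, 1 rose and 2 fell with young culture, 1 rose and 3 fell with aged culture, and Pdss1, which makes the tail of ubiquinone, fell by 1.58 ± 0.20 (adjusted p = 3.88e-08) in young cells and fell by 1.59 ± 0.19 (adjusted p = 2.12e-08) in aged cells.

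On aged ECM 3 genes of these lists, which held 14, 12, 17 and 10 tested genes, were called in aged cells by edgeR's quasi-likelihood test. None was called in young cells, where 5, 1, 3 and 1 genes of the lists in that order had an unadjusted p under 0.05. Of all genes tested, 7.44% were called in aged cells (4.14% higher and 3.30% lower) and 2.49% in young cells. The 3, chosen for naming after their values were seen, were Aacs (0.45 ± 0.09, adjusted p = 0.00231), Mid1ip1 (0.30 ± 0.09, adjusted p = 0.0353) and Zmpste24 (0.26 ± 0.08, adjusted p = 0.0328), all higher. On stiff over soft gels in young cells 2 genes, also named after their values were seen, were called lower: Gpam, a glycerol phosphate acyltransferase (-0.56 ± 0.12, adjusted p = 0.00642), and Abcg1, a sterol exporter (-0.84 ± 0.19, adjusted p = 0.0109). Of all genes tested, 1.90% were called lower and 1.66% higher in that comparison. Gpam averaged 116 ± 4.96 CPM in YCF on SoftY (SD, n = 2), the group in which Scd1 was high, and 54.7 ± 7.02, 68.8 ± 12.9 and 68.2 ± 4.11 CPM on StiffY, SoftA and StiffA (SD, n = 3 each).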

How the data were processed

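Gene counts of 29 libraries were analysed as the authors deposited them: whole-number counts per gene in 1 table of 55357 genes, named in the table as an HTSeq output. Per the submitters' processing notes, the aligner was STAR 2.7.8a and the genome build mm39. The sources used here name no annotation release, counting version or strand setting. Per the labels' protocols, 20 ng of TRIZOL-extracted RNA per library was amplified with a low-input kit, and the labels give no molecular identifiers.

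Counts were tested with edgeR 4.0.16 in R 4.3.3 (TMM scaling, filterByExpr by group, quasi-likelihood F test, Benjamini-Hochberg adjustment over all genes of the fit, called at an adjusted p under 0.05). Fresh cells (6 libraries, 11786 genes, 30 of 32 members), cultured cells (23 libraries, 12841 genes) and all libraries (29, 13523 genes) were fitted separately, the last for culture against fresh cells, with 1 mean per group and no covariate. Each SE was taken as the size of the log2 change divided by the root of its F. CPM are counts scaled to a total of 1000000 after TMM scaling of the 29 libraries. Counts of genes without overlap, and their shares of all genes, use CPM scaled over the libraries of their own fit. Totals of 1192668 to 3275089 counts set the precision, and no libraries of a group were duplicates (chi-square per degree of freedom of 1.78 to 9.07). The scripts were tested on simulated data.

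The members and gene lists were chosen with earlier results of these data known. Values per library are given, though not in every group, for 10 set genes and for some of the members with a called interaction. All called members are named where there are at most 10, and otherwise the largest 2 changes per role at a mean of at least 10 CPM, and any called against their role. Up to 3 genes per pathway list are named by smallest p. Alternatives were DESeq2 1.42.0, RLE factors, no filter on low counts, only the groups compared, the replicate number or library number as a block, each library left out, and, chosen after seeing the data, no libraries under 1500000 counts. Promoters came from RefSeq (GRCm38.p6) and were matched by symbol. The table's gene spans (mm39) served to find overlapping genes, and exons and UTRs were not used here.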

Additional observations from a re-analysis of the deposited data

Results flagged for a closer look

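For 9 of 32 genes the response to culture differed between young and aged cells, a share not far above the 20.6% of all genes tested that differed. The test was edgeR's quasi-likelihood test of the difference itself (aged minus young log2 response, adjusted p under 0.05). The difference was -1.12 for Hsd17b7, -0.51 for Sc5d, -0.55 for Msmo1, -0.44 for Lss and -0.39 for Srebf2. It was 0.72 for Acat2, 0.38 for Fads2, 0.91 for Acaca and 0.44 for Scd2. The same fresh libraries enter the comparison of fresh ages. Only the calls of Acat2, Hsd17b7 and Sc5d held under every alternative run, and that of Lss was lost in 24 of 29 omissions of a single library.

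Scd1 stood out in 2 tests of a difference between effects, both by edgeR's quasi-likelihood test. In young cells the effect of stiffness differed between aged and young ECM by 1.33 on the log2 scale, and the effect of stiffness differed between aged and young cells by 0.68. Both rest on the 2 libraries of YCF on SoftY, in which Scd1 was highest.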

How the results depend on the processing

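Called values of single genes kept their direction under every alternative run. The number of genes called moved by over 1.5 times in 6 comparisons. Leaving out 1 library gave 5 to 15 calls for cultured ages (11 with all libraries), 2 to 4 for young stiffness (3), 5 to 12 for young ECM (12), 1 to 3 for young stiffness by ECM (1), 5 to 13 for young StiffA over SoftY (16) and 6 to 13 for aged StiffA over SoftY (15). With only the groups compared in the fit, 5 genes were called for young ECM and 8 for young StiffA over SoftY. DESeq2 called 2 for young stiffness by ECM. Without the libraries under 1500000 counts, an alternative chosen after seeing the data, 3 were called for young ECM. The cause was not tested beyond the fewer libraries that these fits hold.

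With the replicate number as a block, 5 genes were called for young stiffness, and with the library number as a block 4 for young stiffness by ECM. The block moved no other count of calls by over 1.5 times. The libraries were not taken as paired, since not every same-numbered pair had a correlation of deviations over 0.1. By replicate number 10 of 15 pairs of cultured young libraries passed (lowest -0.46, 7 of 11 libraries best with their own number), and by library number 13 of 15 (lowest -0.02, 8 of 11). In aged cells 16 of 18 pairs passed by either number (lowest -0.09, 11 of 12). Most libraries went best with their own number, so this check does not show that same-numbered libraries are independent. Where they share a source, the p-values of cultured ages, which count 12 and 11 libraries as independent, would be too small. For cultured ages the block joined the numbers of both ages, so it does not answer this.

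Values near 0 that were not called changed sign. Over omissions of 1 library, fresh ageing gave -0.121 to 0.103 for Hmgcs1, -0.0755 to 0.110 for Insig1 and -0.176 to 0.168 for Scd1, culture gave -0.0838 to 0.0408 for Acsl3 (young) and -0.142 to 0.197 for Acaca (aged), and cultured ageing gave -0.00977 to 0.0501 for Hmgcs1. Young stiffness gave -0.0212 to 0.398 for Scd2, and young ECM -0.0570 to 0.0938 for Insig2, which was -0.0104 with the replicate block and -0.0879 without the libraries under 1500000 counts. Aged ECM gave -0.0974 to 0.0331 for Insig2, -0.0870 to 0.0387 for Scap and -0.0119 to 0.0784 for Srebf1. Depth limits Fdps, Tm7sf2 and Acsl3 most, with 826, 387 and 683 counts over all libraries.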
